A study of Homo sapiens with 4 samples.

Results

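Variable (V) gene segments of the antigen receptors were taken from the RefSeq gene table of GRCh38.p14 by their symbols (IGHV, IGKV, IGLV, TRAV, TRBV, TRDV and TRGV), and 408 of 464 such symbols lay in their main loci. Of these, 132 belonged to T-cell receptor loci (54 TRAV and 3 TRDV segments of the joint TRA/TRD locus and 61 TRB segments and 14 TRG segments) and 276 to immunoglobulin loci (127 IGH, 76 IGK and 73 IGL segments). RefSeq types 180 of the 408 as pseudogenes. The other symbols were 49 orphons, which are copies outside the main loci, and 7 segments listed by scaffold coordinates. The segments were set against peaks within 1 kb of each, and against peaks over each locus from 100 kb below to 100 kb above its outermost V segments. In IGH this span begins at chr14:105839754 and leaves out the constant genes below it. The segments were chosen by symbol, and the set was proposed with the positions of peaks in these lists known, so their counts are a description and carry no test.

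The peaks came from CUT&Tag, which uses an antibody to bring a transposase to the chromatin around a target protein, in 6T-CEM, a T-ALL (T-cell acute lymphoblastic leukaemia) line of human origin. RUNX1 was profiled in 2 libraries and ETS1 in 2 libraries, the labels name no treatment, and the authors called the peaks of each library against IgG, the antibody control. The fold given below is the authors' deposited enrichment over IgG at a peak's summit. A region was counted only where both libraries of an antibody had a peak in it, and each library's value there is the fold of the strongest peak it had in the region.

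Antigen receptor genes are assembled in developing lymphocytes by V(D)J recombination, in which the RAG1 and RAG2 proteins cut at recombination signals beside V, diversity (D) and joining (J) segments. The assembled V region is then spliced to a constant (C) gene. T cells normally complete this at T-cell receptor loci and B cells at immunoglobulin loci. Enhancers near the constant genes control both recombination and transcription, and the TRA enhancer downstream of TRAC and the TRB enhancer between TRBC2 and TRBV30 are textbook examples of elements bound by RUNX and ETS proteins together. RUNX1 binds DNA as a dimer with CBFB, and ETS1 gave the ETS family its name.

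The stretches of reference sequence printed here lie inside RUNX1 regions described below, and most of them do not hold the RUNX1 summit. They were copied from the RefSeq promoter and miRNA tables of GRCh38.p14 and are written 5′ to 3′. The first is chr14:22556316-22556615 on the plus strand, the promoter window of LOC105370399, which falls inside the strongest RUNX1 region of the TRA/TRD locus. Its capitals mark a RUNX motif, TGTGGC, read on the reverse strand, the ETS motif GGAAGT in both orientations, the E-box CAGGTG, the cAMP response element TGACGTCA, and the stretch at bases 198 to 206 where TGTGGC and GGATGT, both on the reverse strand, overlap.
TRA 3′ region: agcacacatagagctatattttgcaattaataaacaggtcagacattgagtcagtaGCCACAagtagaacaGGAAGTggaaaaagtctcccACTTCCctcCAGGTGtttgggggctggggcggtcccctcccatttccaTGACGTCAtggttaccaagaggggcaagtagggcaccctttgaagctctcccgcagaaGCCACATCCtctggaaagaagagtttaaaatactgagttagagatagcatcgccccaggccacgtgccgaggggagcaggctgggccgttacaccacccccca
The second, chr14:106657645-106657944 on the plus strand, is the promoter window of LOC102724977 and holds the D-J-C-side end of IGHV3-64. Its capitals mark CACTGTG, the reverse complement of the recombination signal heptamer CACAGTG, which ends directly beside the first base of the segment with 0 bases between them.
IGHV3-64 end: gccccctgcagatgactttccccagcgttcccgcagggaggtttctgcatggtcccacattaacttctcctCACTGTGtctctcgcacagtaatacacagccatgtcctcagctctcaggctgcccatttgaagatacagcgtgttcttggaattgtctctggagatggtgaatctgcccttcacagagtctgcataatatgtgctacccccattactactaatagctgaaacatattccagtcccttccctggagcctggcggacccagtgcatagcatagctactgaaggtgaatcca
The third is the MIR650 hairpin, chr22:22822776-22822871 on the plus strand, whose capitals mark the 51 bases that it shares with the start of IGLV2-8.
MIR650 hairpin: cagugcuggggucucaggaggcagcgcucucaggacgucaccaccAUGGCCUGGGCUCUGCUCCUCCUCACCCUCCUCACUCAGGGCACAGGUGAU
The last is the MIR4537 hairpin, chr14:105859484-105859553 on the minus strand, from the stretch between the IGH joining segments and IGHM, with its 6 copies of GAGCU in capitals. GAGCT and GGGCT are the repeats known from the human IGHM switch region.
MIR4537 hairpin: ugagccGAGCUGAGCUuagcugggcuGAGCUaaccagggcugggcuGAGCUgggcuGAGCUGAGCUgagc

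RUNX1 and ETS1 were present at a minority of V segments, and most of the occupied segments were IGH segments. A RUNX1 region lay within 1 kb of 76 of the 408 segments (18.6%, 95% Wilson interval 15.1 to 22.7%), and 66 of the 408 overlapped one. The background was 27.5% of all other RefSeq genes and 4.47% of those 200 to 1000 bp long, the size class of V segments. An ETS1 region lay within 1 kb of 22 segments (5.39%, 3.59 to 8.03%), with a background of 10.2% of all other genes and 1.84% of the short ones. All 22 overlapped the segment and all 22 also had a RUNX1 region.

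By locus, RUNX1 was found at 2 of 57 TRA/TRD segments, 6 of 61 TRB segments and 2 of 14 TRG segments, and at 62 of 127 IGH segments, 0 of 76 IGK segments and 4 of 73 IGL segments. The share was 7.58% for T-cell receptor segments (10 of 132, 4.17 to 13.4%) and 23.9% for immunoglobulin segments (66 of 276, 19.3 to 29.3%). ETS1 was found at 1 TRB segment and 21 IGH segments, and at no segment of the other 4 loci. The median distance from a segment to the nearest RUNX1 region was 83.5 kb in TRA/TRD, 107.7 kb in TRB and 19.8 kb in TRG, and 1.33 kb in IGH, 622.8 kb in IGK and 27.1 kb in IGL.

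Just inside the 1 kb limit for RUNX1 were IGHVII-60-1 at 993 bp, IGHVIII-67-3 at 945 bp and IGHVII-20-1 at 914 bp. Just outside it were IGHVIII-2-1 at 1252 bp, IGHVII-40-1 at 1328 bp and IGHV3-37 at 1529 bp. For ETS1 the nearest segments left out were IGHV3-37 at 1828 bp, IGHVII-65-1 at 2982 bp and TRBV30 at 3019 bp, and no segment lay between overlap and the limit.

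**Figure D1:**
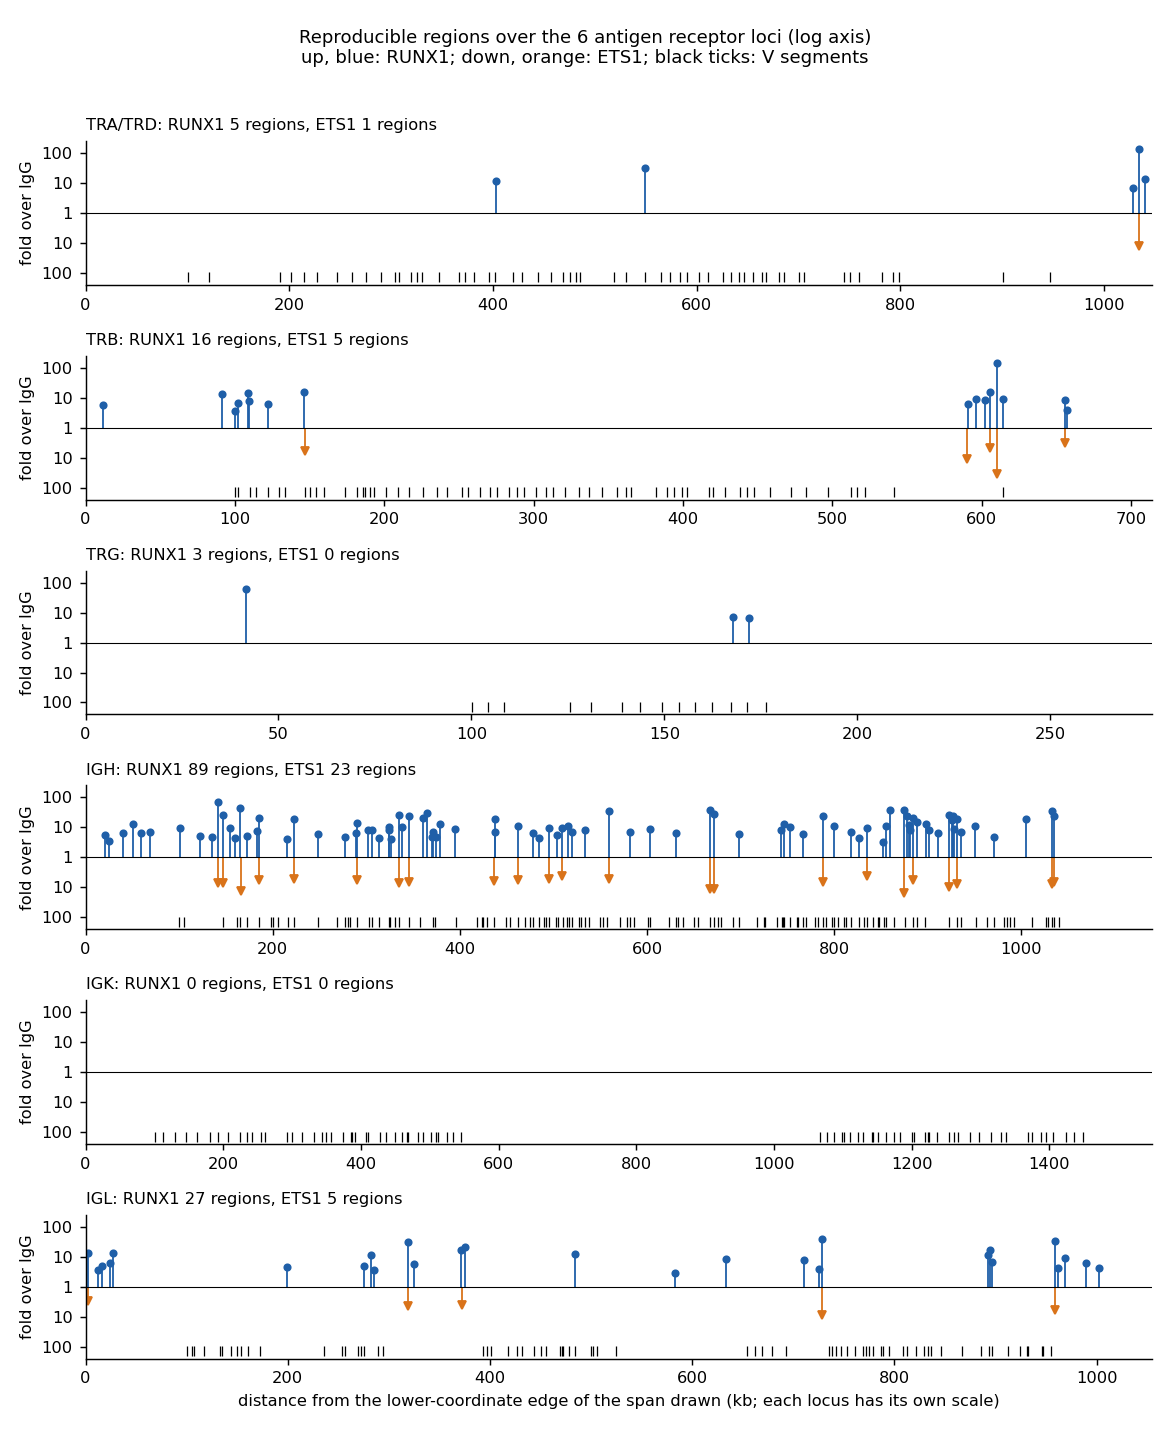
Fold over IgG (log axis, mean of 2 libraries) of reproducible RUNX1 regions (blue, upward) and ETS1 regions (orange, downward) along the 6 loci, against distance in kb from the lower-coordinate edge of each span, with V segments as black ticks. IGH carries 89 RUNX1 and 23 ETS1 regions along its span and IGK none, while in TRB the V segments between the low-coordinate group and the constant genes are bare.

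At the TRA/TRD locus the strongest occupancy lay beyond the constant gene, and few V segments had any. The region at chr14:22554016-22559005 begins 1884 bp beyond TRAC, the alpha constant gene. Its fold was 134.7 and 128.9 in the RUNX1 libraries (131.8 ± 4.11, SD, n = 2) and 12.3 and 12.4 in the ETS1 libraries. It ranked 31st of the 22802 RUNX1 regions by mean fold, and the RUNX1 and ETS1 summits were 3 bp apart. The RUNX1 summit, on the same base in both libraries, lies 24 bp beyond the last base of the first sequence printed above. In that sequence TGACGTCA stands at bases 140 to 147, ahead of the overlapping TGTGGC and GGATGT.

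The share of all 34943 RefSeq promoter windows of 300 bp that hold these letters on either strand was 1.84% for TGACGTCA, 18.1% for TGTGGC, 10.1% for GGATGT, 22.8% for GGAAGT and 20.6% for CAGGTG. The letters TGTGGC and GGATGT were added to the search after this sequence had been read. The RUNX letters searched first, TGTGGT and TGCGGT, were in 13.1% and 7.27% of all windows and in none of the 14 windows over the 6 loci that overlapped a RUNX1 region. GGAAGT was in 7 of those 14 windows, CCGGAA in 3, CAGGTG in 10 and CAGCTG in 2, and the octamer ATGCAAAT was in 0. Of all windows, 17.2% held CCGGAA, 17.9% held CAGCTG and 1.77% held the octamer. The 14 windows were picked by their RUNX1 regions, and the shares over all windows with a RUNX1 region were not counted. These counts therefore cannot show a trait of the loci. No V segment has a window of its own in the table, so V segment promoters were not searched.

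Further RUNX1 regions flanked this site without ETS1. One overlapped TRAC with a fold of 6.80 and 6.96, and the other lay 9469 bp beyond TRAC with a fold of 14.2 and 14.0. Among the V segments only TRAV22, with 32.8 and 31.6-fold, and TRAV14DV4, with 8.57 and 14.0-fold, had RUNX1. At TRAV22 the summits fell at the J-C-side end of the segment, 5 bp beyond it in library 1 and 8 bp inside it in library 2. From TRAV23DV6 to TRDV3 and on to the edge of TRAC, 478.7 kb held no RUNX1 region, and that stretch contains 25 V segments, all 65 J segments, all 3 D segments and TRDC.

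At TRB the occupied sites formed a pair of groups at the opposite ends of the locus. The constant-gene side held the strongest region over the 6 locus spans for both factors, at chr7:142808436-142809690, between TRBC2 and TRBV30. Its fold was 137.1 and 146.5 in the RUNX1 libraries (141.8 ± 6.64, SD, n = 2) and 36.0 and 33.8 in the ETS1 libraries (34.9 ± 1.59). By mean fold it ranked 26th of 22802 RUNX1 regions and 21st of 5055 ETS1 regions. A weaker shared region 1739 bp beyond TRBC2 had 15.1 and 15.4-fold for RUNX1 and 4.60 and 5.08-fold for ETS1.

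TRBV30, the inverted V segment that stands beyond the constant genes, had RUNX1 at 6.43 and 12.3-fold. This was the widest spread between libraries of all occupied V segments (1.91 times). The summits differed, at chr7:142812804 in library 1 and chr7:142813310 in library 2. Their pileups were 103 and 84 reads or fragments over an IgG expectation of 15.2 and 5.90, so the spread does not compare a single site. The other occupied TRB segments were at the far end of the locus. TRBV4-2 had RUNX1 at 15.8 and 16.5-fold and ETS1 at 5.54 and 5.93-fold, and was the only T-cell receptor V segment with ETS1. The RUNX1 and ETS1 summits at TRBV4-2 were 376.0 bp apart, so the factors did not share a summit there. TRBV3-1 overlapped a region of 8.06 and 7.25-fold. Its strongest region within 1 kb, of 10.6 and 17.8-fold, lay 874 bp away and also varied between the libraries. TRBV2 had 6.92 and 6.35-fold, TRBV5-1 had 6.04 and 6.39-fold, and the pseudogene TRBV1 had 3.77 and 3.60-fold. The TRBV5-1 summits lay at chr7:142321555 in library 1 and chr7:142320419 in library 2, so those folds are not of a single site either. Between the groups, 440.1 kb (85.6% of the V-to-C span) held no RUNX1 peak of either library, and 51 of the 61 V segments, from TRBV7-2 to TRBV29-1, lie wholly in it.

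TRG had a single strong site. The region at chr7:38232671-38233499, 6525 bp beyond TRGC2, had a RUNX1 fold of 63.2 and 57.0 and no ETS1 peak. TRGV3, with 6.79 and 7.82-fold, and TRGV2, with 6.76 and 6.19-fold, were the only occupied TRG segments. Their RUNX1 summits lay beyond the far end from the J segments, 714 to 759 bp from the J-C-side end of segments 465 and 468 bp long. No ETS1 peak of either library lay anywhere over the TRG span.

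**Figure D2:**
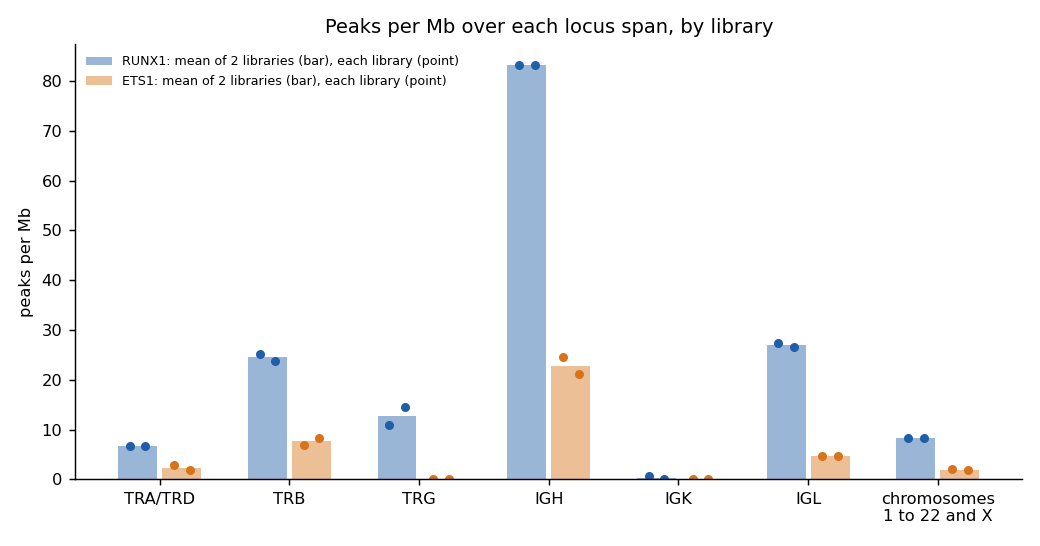
Peaks per Mb over each locus span for RUNX1 (blue, left) and ETS1 (orange, right), with bars for the mean of 2 libraries and points for each library, beside the value for chromosomes 1 to 22 and X. Both RUNX1 libraries stand at 83.3 peaks per Mb over IGH, against 8.37 and 8.25 over the chromosomes.

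IGH was the most densely occupied antigen receptor locus for both factors. It held 89 RUNX1 regions in 1.14 Mb (78.1 per Mb) and 23 ETS1 regions (20.2 per Mb), against 7.53 and 1.67 per Mb over chromosomes 1 to 22 and X. Of its 89 RUNX1 regions, 62 lay within 1 kb of a V segment and 52 overlapped one. The median fold of the IGH regions was 9.29 for RUNX1 and 6.83 for ETS1, against 8.20 and 5.82 over all regions. The IgG expectation at these summits, solved from the deposited fold and p, had a median of 7.07 for RUNX1 regions and 7.89 for ETS1 regions, against 9.07 and 8.96 over all regions.

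Segments not typed as pseudogenes made up most of the occupied IGH segments. RUNX1 was within 1 kb of 39 of the 48 such segments (81.2%, 68.1 to 89.8%) and of 23 of the 79 pseudogenes (29.1%, 20.3 to 39.9%). ETS1 was at 19 of the 48 and at 2 of the 79, the pseudogenes IGHV1-17 and IGHV4-80. The 9 segments of the first kind without RUNX1 were IGHV1-58, IGHV2-5, IGHV3-23, IGHV3-35, IGHV3-38, IGHV3-49, IGHV3-73, IGHV5-10-1 and IGHV5-51. Occupied segments were spread over the whole locus. Taken in order from the D side, groups of 32, 32, 32 and 31 segments held 20, 14, 12 and 16 segments with RUNX1 and 7, 4, 3 and 7 with ETS1.

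The subgroups, which are sets of segments with similar sequence, varied in share and in fold, with no test of the differences. In IGHV1, RUNX1 was at 11 of 15 segments with a median fold of 26.3 and ETS1 at 9 with a median of 10.1. In IGHV2, both factors were at 3 of 4 segments, with median folds of 19.6 for RUNX1 and 5.68 for ETS1. All 9 IGHV4 segments had RUNX1, at a median of 8.18-fold, and 3 of them had ETS1. IGHV3, the largest subgroup, had RUNX1 at 25 of 48 segments with a median of 7.16-fold and ETS1 at 4. Those 25 were 17 of the 22 IGHV3 segments not typed as pseudogenes and 8 of the 26 IGHV3 pseudogenes. None of the 3 IGHV5 segments had either factor. The pseudogene subgroups IGHVII and IGHVIII had RUNX1 at 6 of 22 and 3 of 17 segments, and no ETS1.

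**Figure D3:**
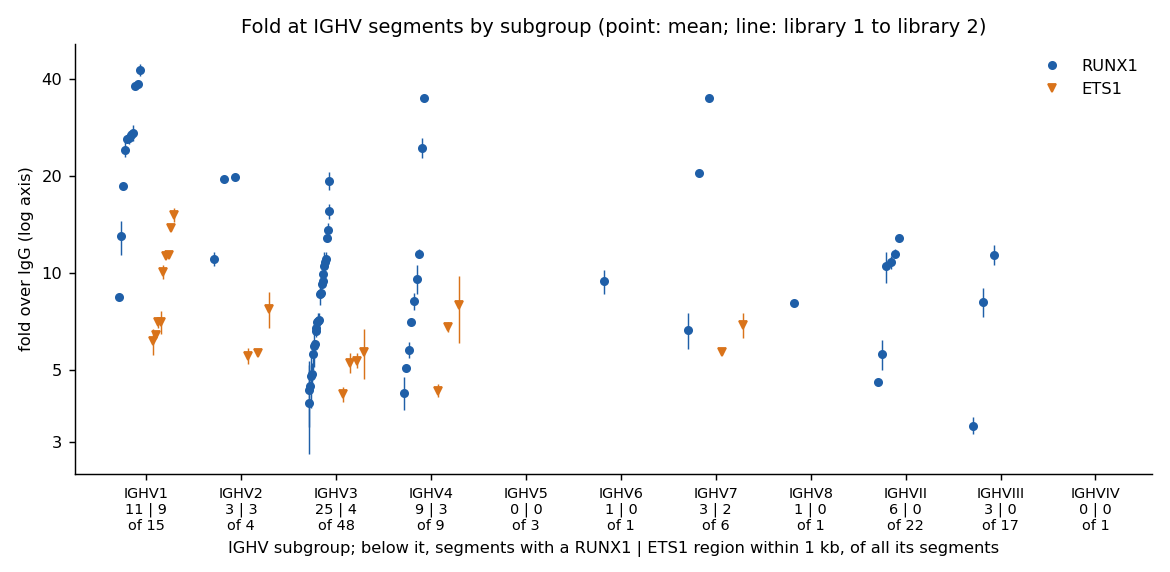
Fold over IgG (log axis) of the strongest region within 1 kb of each occupied IGHV segment, by subgroup, with RUNX1 in blue on the left and ETS1 in orange on the right; points are means and lines join the 2 libraries. The IGHV1 segments reach 42.7-fold for RUNX1 and 15.1-fold for ETS1, while most IGHV3 segments lie under 10-fold for RUNX1.

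Among single segments, IGHV1-3 had the highest RUNX1 fold of all 408, with 44.6 and 40.8 in the RUNX1 libraries and 13.7 and 14.0 in the ETS1 libraries. IGHV1-45 had 37.8 and 39.3-fold for RUNX1 and 11.3-fold in both ETS1 libraries. IGHV1-69, a segment common in human antibodies against influenza virus, had 38.3 and 37.4-fold for RUNX1. Its ETS1 fold, 15.9 and 14.4, was the highest of any segment. That ETS1 fold came from summit pileups of 52 and 52 reads or fragments over a low IgG expectation, 2.34 and 2.68. At IGHV1-3 the ETS1 pileups were 149 and 140 over 9.95 and 9.10, so ranks by fold and by pileup differ. The libraries of an antibody lay close together at these 3 segments, and RUNX1 and ETS1 values did not overlap. Over regions with both factors, the median ratio of RUNX1 to ETS1 fold was 3.48 in the loci and 2.39 over the chromosomes (n = 4691). A higher RUNX1 fold is therefore not particular to these segments.

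The pseudogene IGHV4-80 had 34.4 and 35.5-fold for RUNX1 and 9.82 and 6.09-fold for ETS1, the widest ETS1 spread between libraries (1.61 times). Its RUNX1 region also lay 970 bp from IGHV7-81, which overlapped a region of its own with 22.8 and 23.9-fold for RUNX1 and 7.51 and 6.31-fold for ETS1, so both segments carry the IGHV4-80 fold where segments are ranked by RUNX1. IGHV1-46 had 25.6 and 28.8-fold for RUNX1 and 11.6 and 11.2-fold for ETS1. IGHV1-2 had 25.6 and 27.7-fold for RUNX1 and 7.65 and 6.48-fold for ETS1. Of the 10 segments with the highest RUNX1 fold, 7 were IGHV1 segments and 9 had ETS1, and the exception was TRAV22.

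The 30 segments with the highest RUNX1 fold, down to 11.3, included 24 IGH segments, and 18 of the 30 had ETS1. Besides the IGH segments named above they were IGHV1-17, IGHV1-18, IGHV1-24, IGHV1-69-2, IGHV1-69D, IGHV2-70, IGHV2-70D, IGHV3-7, IGHV3-13, IGHV3-52, IGHV3-69-1, IGHV4-59, IGHV4-61, IGHV7-4-1, IGHVII-51-2, IGHVII-60-1 and IGHVIII-67-4. IGHVII-51-2 and IGHVII-60-1 carry the folds of regions 770 and 993 bp away, which overlapped IGHV3-52 and IGHV4-61. The other 46 segments ranged from 3.37 to 11.1-fold, and 4 of them had ETS1, namely IGHV2-26, IGHV3-30, IGHV3-66 and IGHV4-30-2. Across the 76 segments the higher library exceeded the lower by a median of 1.09 times for RUNX1, and across the 22 by 1.10 times for ETS1.

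IGHV1-69 and IGHV1-69D are near-identical copies, as are IGHV2-70 and IGHV2-70D, and IGHV3-64 and IGHV3-64D. IGHV1-69D had 25.3 and 26.6-fold for RUNX1 and 9.60 and 10.6-fold for ETS1. Its RUNX1 pileups were 234 and 235 over an IgG expectation of 8.27 and 7.86, against 143 and 159 over 2.76 and 3.28 at IGHV1-69. For ETS1 its pileups were 76 and 72, against 52 and 52. IGHV1-69D thus had the lower folds and the higher pileups. IGHV2-70 had 19.5 and 19.6-fold for RUNX1, and IGHV2-70D had 19.9 and 19.7-fold. IGHV3-64 had 6.76 and 7.55-fold, and IGHV3-64D had 5.13 and 6.75-fold. How the authors treated reads that map to several places is not given in the sources used here, so the value of a single copy is uncertain, and the same holds for members of a subgroup where their sequences are alike.

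Summits at IGHV segments fell mostly inside the segment. In the strongest region within 1 kb of each, the RUNX1 summits of both libraries were inside the segment at 36 of the 62 occupied IGH segments (58.1%), while the segments make up 17.1% of the length of the windows searched. Counting every region within 1 kb added IGHV7-81, whose own region had both summits inside, and gave 37 of 62 (59.7%). The ETS1 summits of both libraries were inside at 21 of 21. Measured from the D-J-C-side end, where the recombination signal lies, the median summit was 125.8 bp into the segment for RUNX1, over the 50 segments that the strongest region overlapped, and 151.5 bp for ETS1, over all 21, with a median segment length of 439 and 438 bp. All 11 occupied IGHV1 segments had RUNX1 summits inside, with single summits 87 to 337 bp from that end. Over all 25 occupied IGHV3 segments the median was 18.0 bp, and 13 of 25 had both summits inside. At IGHV3-64, whose D-J-C-side end is printed above, the RUNX1 summit of both libraries was 365 bp into the segment. At the 6 IGHVII pseudogenes the summits of the strongest region all lay outside, and a weaker region that overlapped IGHVII-15-1 had the library 1 summit inside it and the library 2 summit outside.

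**Figure D4:**
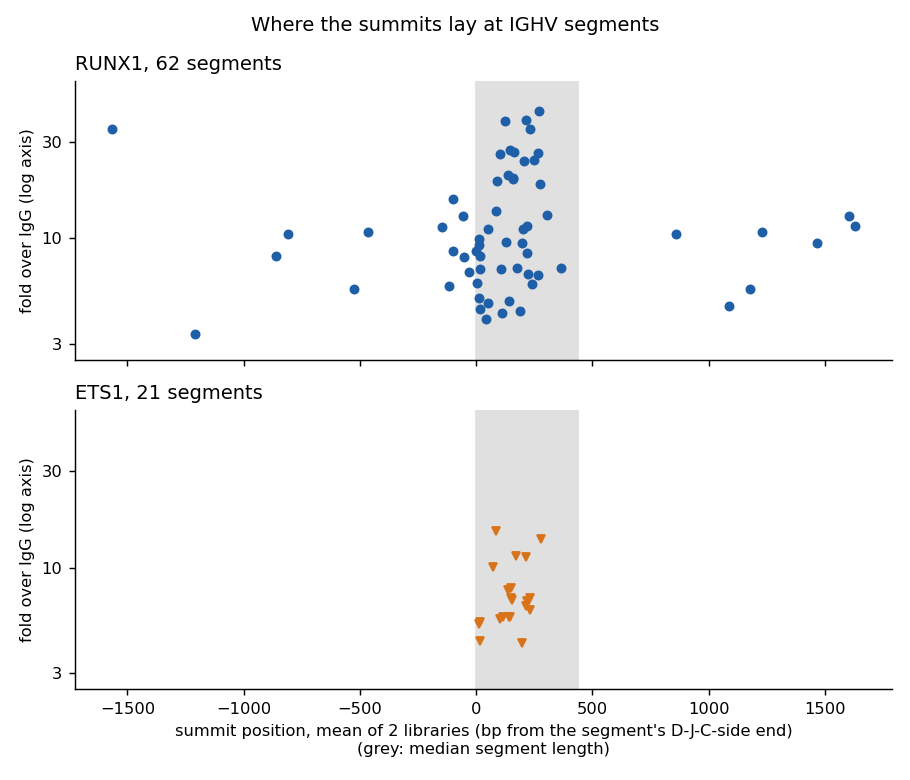
Summit position (bp from the D-J-C-side end of the segment, mean of 2 libraries) against fold over IgG (log axis) of the strongest region within 1 kb, for the 62 IGHV segments with RUNX1 and the 21 with ETS1; grey marks the median segment length. The ETS1 summits lie inside segments at all 21, and 36 of the 62 segments have both RUNX1 summits of that region inside; IGHV7-81 is drawn by the stronger region at IGHV4-80.

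Beyond the V segments, IGH also held the strongest RUNX1 region over the immunoglobulin spans searched. The region at chr14:105981014-105983099, 3483 bp from IGHV1-2, had 67.7 and 74.1-fold for RUNX1 and 6.89 and 6.96-fold for ETS1. A region at chr14:106398643-106399652, 1529 bp from IGHV3-37, had 35.3 and 33.0-fold for RUNX1 and 5.52 and 5.42-fold for ETS1. These were the 2 ETS1 regions of the IGH span that lay beyond 1 kb of a V segment. Regions over the constant genes below that span were not listed. Toward the constant genes, a RUNX1 region of 5.60 and 5.88-fold lay at chr14:105857358-105860570, between the J segments and IGHM. Its pileups were 387 and 386 reads or fragments over an IgG expectation of 68.2 and 64.9. The median IgG expectation of IGH RUNX1 regions was 7.07. The region covered 4 miRNA genes, among them MIR4537 printed above, and had no ETS1. Its library 1 summit lay 552 bp beyond the higher-coordinate end of the MIR4537 hairpin.

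IGL held 27 RUNX1 regions (25.6 per Mb), of which 5 lay within 1 kb of a V segment. IGLV3-9 had 18.7 and 16.5-fold, IGLV1-40 had 12.8 and 11.8-fold, IGLV2-8 had 7.22 and 5.99-fold and IGLV11-55 had 5.08 and 4.84-fold. At IGLV2-8 the summit of library 1 lay 10 bp after the start of the MIR650 hairpin printed above, and that of library 2 lay 29 bp beyond its end. The stronger IGL sites were not at V segments. A region 6071 bp from IGLV3-29 had 38.5 and 39.1-fold for RUNX1 and 9.81 and 8.08-fold for ETS1. Another, 2536 bp from IGLV3-1 on the side of the J segments, had 34.3 and 33.0-fold for RUNX1 and 6.02 and 5.55-fold for ETS1. VPREB1, a surrogate light chain gene that lies among the IGL segments, had 31.0 and 31.1-fold for RUNX1 and 4.39 and 4.15-fold for ETS1.

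IGK was bare. No reproducible region of either factor lay over its 1.55 Mb span, and the 4 lists together held 1 peak there, a RUNX1 library 1 peak. The lists hold only peaks past the authors' threshold, so weaker occupancy would not appear. Of the 76 segments, 33 pairs differ in symbol only by the D of the distal copy, and the part of reads that map to several places in this absence was not tested.

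Over the 6 loci together, the libraries held 153 and 151 peaks for RUNX1 and 41 and 37 for ETS1, which do not overlap. The difference, RUNX1 minus ETS1, was 113.0 peaks per library (152.0 ± 1.41 and 39.0 ± 2.83, SD, n = 2 each; two-sided exact permutation test over 4 libraries, p = 0.333, the smallest this design allows). The ratio of 3.90 stood beside 4.31 for the whole lists. With the number of strongest peaks by q set equal in the 4 lists the difference was 0.5 peaks, and 18 segments then had RUNX1 and 22 had ETS1. The T-cell receptor loci held 11.8 RUNX1 regions per Mb and the immunoglobulin loci 31.0, a ratio of 0.380. For ETS1 the values were 2.94 and 7.48 per Mb. By locus, RUNX1 regions per Mb were 4.77 in TRA/TRD, 22.4 in TRB and 10.9 in TRG. They were 78.1 in IGH, 0 in IGK and 25.6 in IGL, so the higher immunoglobulin value rests largely on IGH. The ratio without IGH was not computed.

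RUNX1 regions over the loci overlapped ETS1 regions at 33 of 140 (23.6%, 17.3 to 31.2%), against 20.6% of RUNX1 regions over the chromosomes used. In the other direction, 33 of 34 ETS1 regions overlapped a RUNX1 region (97.1%, against 98.0%). The 33 shared regions were 1 in TRA/TRD, 4 in TRB, 23 in IGH and 5 in IGL. Their summits were a median of 36.0 bp apart, and 27 lay within 100 bp. Shared IGH regions had a median RUNX1 fold of 24.1 (range 9.29 to 70.9, n = 23) and IGH regions with RUNX1 alone one of 7.23 (3.37 to 38.0, n = 66), with ranges that overlap. Over the chromosomes the medians were 14.8 for 4691 regions with ETS1 and 7.22 for 18111 without. The RUNX1 fold and the ETS1 fold of a region ran together (Spearman's rho of 0.783 over the 33 regions, against 0.427 over 4691). This is a description, since the regions share their libraries.

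**Figure D5:**
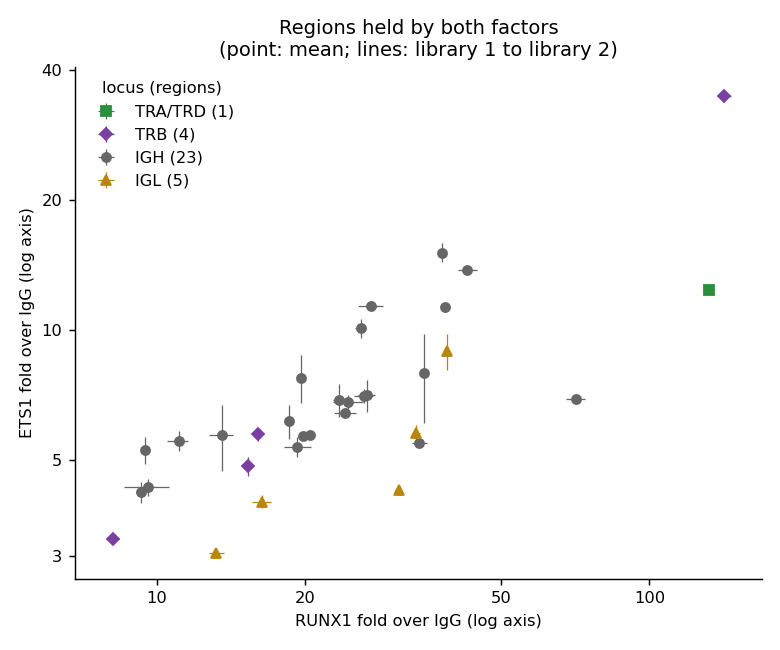
RUNX1 fold over IgG against ETS1 fold over IgG (both log axes) at the 33 regions held by both factors, by locus; points are means and lines join the 2 libraries. The TRB region between TRBC2 and TRBV30 stands at 141.8 and 34.9, and the TRA region and the IGH region near IGHV1-2 have high RUNX1 folds with ETS1 folds of 12.4 and 6.93.

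Over the spans searched, the single ETS1 region without RUNX1 lay over TRBJ1-6, a J segment of the first TRB cluster, at 11.1 and 10.9-fold. The nearest RUNX1 region, of 5.59 and 6.41-fold, began 513 bp from the same segment. TRBJ1-4 and TRBJ1-5 lay within 1 kb of the ETS1 region too, and these 3 were the only D, J or C segments with ETS1. RUNX1 was within 1 kb of 15 of 105 J segments, 9 of 32 D segments and 4 of 25 C segments, beside 27.5% of all other genes and 4.47% of the short ones. ETS1 was near 3 J segments of 105, beside 10.2% and 1.84%. A single weak region of 3.08 and 3.99-fold accounted for all 9 IGH J segments. Its summits differed, at chr14:105863361 in library 1 and chr14:105865642 in library 2. None of the 65 TRA/TRD J segments had RUNX1. The D segments with RUNX1 were 8 of 27 in IGH, led by IGHD2-21 at 13.6 and 12.5-fold, and TRBD2 at 8.15 and 10.1-fold. The C segments were TRAC, TRBC2 at 7.47 and 9.80-fold, IGLC1 at 9.49 and 8.37-fold and IGLC5 at 5.82 and 6.49-fold.

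Genes of the recombination reaction were mostly occupied. RUNX1 was within 1 kb of 13 of 16 listed genes and ETS1 of 10 of 16, beside 56.0% and 22.3% of protein-coding genes. RAG1, which carries the catalytic site of the recombinase, had 4.69 and 6.41-fold for RUNX1 and no ETS1. RAG2, DNTT (terminal transferase) and XRCC5 had neither factor, and POLL and XRCC4 had RUNX1 alone, at 6.42 and 6.10-fold and at 4.06 and 4.93-fold. DCLRE1C, which encodes the hairpin-opening nuclease Artemis, had 14.2 and 15.1-fold for RUNX1 and 5.32 and 5.05-fold for ETS1. LIG4, the ligase of end joining, had 15.3 and 13.6-fold for RUNX1 and 5.96 and 6.06-fold for ETS1. At 2 genes ETS1 had the higher fold. PRKDC, the DNA-dependent kinase, had 5.28 and 4.96-fold for RUNX1 and 12.8 and 11.3-fold for ETS1, and HMGB2 had 6.18 and 6.59-fold for RUNX1 and 7.96 and 8.21-fold for ETS1. TP53BP1 had the highest RUNX1 fold of the list, 27.9 and 30.3, with 6.40 and 6.74-fold for ETS1. ATM, HMGB1, NHEJ1, POLM and XRCC6 had both factors, at mean folds of 8.72 to 16.3 for RUNX1 and 2.90 to 9.52 for ETS1.

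Among lineage markers, read beside the same 56.0% and 22.3% of protein-coding genes, T-lineage markers had RUNX1 at 7 of 7 genes and ETS1 at 4 of 7. B-lineage markers had RUNX1 at 4 of 7 genes (BLK, CD22, CD79A and PAX5) and ETS1 at 0, and myeloid markers had RUNX1 at 2 of 5 and ETS1 at 0. The B-lineage count for RUNX1 was at the protein-coding share, so it does not bear on the T-ALL label, and none of these counts was tested. Peak lists hold no transcript levels and no copy number, so whether the V segments were transcribed, rearranged or deleted in these cells was not tested.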

How the data were processed

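CUT&Tag peak lists of 4 libraries (RUNX1 and ETS1, 2 each) were used. Per the submitters' processing notes, bcl2fastq 2.17, Bowtie2 and MACS3 3.0.0a6 were used with hg38, and per the labels attached to the lists each library was called separately against IgG. For the call threshold and filters on duplicates and mapping, no entry stands in the sources used here. The deposited columns are the fold over IgG (a ratio), −log10 p and −log10 q, and a score that was not used. Fold, as given by the authors, served to describe and rank peaks.

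The lists held 25360 and 25001 peaks for RUNX1 and 6082 and 5625 for ETS1, and their lowest −log10 q lay between 5.00 and 5.03. Read totals are not in the lists, so depth is unknown in absolute terms. Summit pileups and IgG expectations were solved from fold and −log10 p (100% of peaks) and had medians of 75 and 71 reads or fragments for RUNX1 and 54 and 51 for ETS1, which limits the precision of weak folds. The solution and the region counting were tested on simulated data.

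Peaks on chromosomes 1 to 22 and X that touched or overlapped were merged within an antibody and kept where both libraries had one, which left 22802 RUNX1 and 5055 ETS1 regions. Regions of both factors were called shared at an overlap of at least 1 bp. Segments were named in the text where they had a region of ETS1, where they were among the 30 with the highest RUNX1 fold, and, in each locus, at the 3 strongest regions; weak IGH segments were summarised. Members and lists were chosen with earlier results of these data known. The gene table gives no strand, so the D-J-C-side end was taken as the lower coordinate in IGH and TRG and the higher one in IGL, TRA and TRB.

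The labels do not say that libraries of an antibody came from separate cultures, so SDs and the exact permutation p cover these libraries only. Wilson intervals (95%) cover counting error only, and neighbouring segments can share a region. Python 3.11.15, pandas 2.3.3, scipy 1.17.1 and matplotlib 3.10.9 were used. Alternatives were the window, the span, pseudogenes and kappa copies left out, either library, each library left out, −log10 q of at least 20, equal numbers of peaks, stricter overlap, covered length and a replicate block.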

Additional observations from a re-analysis of the deposited data

How the results depend on the processing

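Of 57 alternative values, 41 stayed within set limits, 16 moved and 0 reversed; the limits were 1.5 times the value for counts and the peak difference (direction alone for covered length), its Wilson interval for a share, and the SD between libraries, 0.00473, for the ratio per Mb, so small moves of that ratio count. With equal numbers of strongest peaks (5611 a list), RUNX1 was within 1 kb of 18 segments in place of 76 and had 36 regions over the loci in place of 140, 69.4% of them shared with ETS1, and the peak difference between antibodies, 113.0 in full lists, was 0.5 (exact permutation test, p = 1). At −log10 q of at least 20, ETS1 had 14 segments in place of 22 and 19 regions in place of 34. A window of 5 kb gave 39 segments with ETS1, and a reciprocal overlap of 50% left 10.7% of RUNX1 regions shared. The ratio of RUNX1 regions per Mb, T-cell receptor over immunoglobulin loci, was 0.380 and became 0.350 with no flank, 0.335 over the V-to-C span, 0.442 with a peak of either library, 0.386 at the stricter q, 0.296 with equal peaks, and 0.412 to 0.418 with a replicate left out, all below 1. No alternative left out IGH, the densest locus. Counting TGTGGC as a RUNX motif, chosen after seeing the data, raised the promoter windows with a RUNX motif from 13 to 25 of 56. With the replicate number as a block the peak difference was 113.0 (exact sign-flip permutation test, p = 0.5, the smallest that 2 pairs allow), and no other call could change. With a replicate left out it was 112 to 114 peaks, RUNX1 segments numbered 77 to 80 and ETS1 segments 22 to 26. Median pileups of 51 to 75 limit what single weak folds can show.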

Other observations

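Regions over the loci that belong to neighbouring genes were part of the locus counts. In the flank of TRB, EPHB6, an ephrin receptor gene, had a shared region of 8.41 and 7.91-fold for RUNX1 and 3.27 and 3.28-fold for ETS1. In the flank of IGL, PPM1F, a protein phosphatase gene, had a shared region of 13.7 and 12.8-fold for RUNX1 and 3.01 and 3.09-fold for ETS1. Among the IGL segments, PRAME, a tumour antigen gene, had RUNX1 alone at 8.73 and 8.71-fold. Of the 140 RUNX1 regions over the loci, 78 lay within 1 kb of a V segment, 11 within 1 kb of a D, J or C segment only, and 51 near neither. Of the 34 ETS1 regions, the same counts were 22, 1 and 11.

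Segments outside the main loci are not part of the counts by locus. Of 48 orphon V segments on chromosomes 1 to 22 and X, 3 had a RUNX1 region within 1 kb (6.25%, beside 4.47% of other genes of 200 to 1000 bp and 27.5% of all other genes) and 0 had an ETS1 region. They were IGHV1OR15-6, with 7.81 and 10-fold over IgG in the RUNX1 libraries, IGHV1OR15-2, with 6.32 and 6.26-fold, and IGHV1OR15-9, with 4.75 and 4.76-fold, all on chromosome 15 and all copies of the IGHV1 subgroup. The 3 regions overlapped the segments themselves. How reads that map to several places were treated is not given in the sources used here, so the values of these copies are uncertain. These segments were counted after the data had been examined.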
